A study of Mus musculus with 36 samples.

Results

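The comparison set kidneys of 12-week-old mice against kidneys of 10-week-old mice. It contrasted the 8 kidney libraries labelled with these ages, 4 for each, out of 36 libraries in the series, which also cover kidney at 8 weeks and heart and liver at all 3 ages. The 4 kidney libraries of 8 weeks also entered the main fit and helped to set its scaling and its estimate of the spread. A gene was tested when its mean count was 10 or more at 10 or at 12 weeks, which kept 17452 of 78239 gene identifiers. All mice were wild-type C57BL/6NCrl males bought at 6 weeks of age and kept in cages of 2 to 3 animals. They were anaesthetised with ketamine and xylazine and killed by cervical dislocation before the organs were taken. The cage and the day of harvest of each library are not given in the sources used here, so age and day of harvest cannot be told apart, and p-values measure the spread between the libraries of a group. Polyadenylated RNA was sequenced in pairs of 150 bases. The 8 libraries held between 22452556 and 32670858 counted read pairs. Values below are read pairs on the gene per 1000000 counted pairs (CPM) scaled by edgeR's TMM factors, and a gene is called when its Benjamini-Hochberg adjusted p in edgeR's quasi-likelihood test was under 0.05.

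The mouse kidney filters plasma in its glomeruli and recovers salts, sugars, amino acids and water along the tubule, so that its RNA comes largely from proximal tubule cells. These cells are rich in mitochondria, whose respiratory chain is built from subunits encoded in the nucleus and in the mitochondrial genome. In male mice, androgen raises many proximal tubule transcripts as the animals reach maturity. Cytosolic ribosomes are built from ribosomal RNA and ribosomal proteins, most of which are encoded by short genes with many processed copies elsewhere in the genome.

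The libraries carried the markers of their label. Summed over 33 proximal tubule genes, they held between 21502 and 25189.9 CPM, against 129 to 235 CPM over 6 liver genes and 0.679 to 1.43 CPM for the one striated muscle gene tested. Slc34a1, the main phosphate transporter of the proximal tubule, lay between 4853 and 5899 CPM, and Kap, an androgen-induced protein of the proximal tubule, between 18806 and 23249 CPM. The share of read pairs counted on genes was 76.8% ± 0.530 (SD, n = 4) at 10 weeks and 77.8% ± 0.337 at 12 weeks, which did not overlap (two-sided exact permutation test, p = 0.0286, the smallest that 70 splits allow). The share of pairs that mapped to several places, which are not counted, was 8.72% ± 0.345 at 10 weeks and 8.20% ± 0.471 at 12 weeks (exact permutation test, p = 0.2). In a principal component analysis of the 12 kidney libraries, the 10-week libraries scored 31.9, 20.4, 27.5 and 4.91 on the first component, which held 19.0% of the variance. The 12-week libraries scored 4.38, -21.6, -11.6 and -20.6 on it. The 8-week libraries scored -9.63, 1.64, -15.1 and -12.3, within the range of the 12-week libraries. The component thus set the 10-week libraries towards one end, apart from both other ages. The 10-week replicate 4 and the 12-week replicate 1 lay next to each other on it, between the other libraries of 10 and of 12 weeks.

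Promoter sequences are shown for 6 genes that the results turn on, to place the called genes in the genome and to show which of them carry the letters of a known response element. They are the 250 bases before the start of the RefSeq transcript, from a RefSeq table on GRCm38.p6, written 5′ to 3′ on the gene's strand in lower case, with matches to a searched motif in capitals. Rpl39 encodes a protein of the large ribosomal subunit, Ndufc1 a subunit of respiratory complex I, Hspe1 the mitochondrial co-chaperonin, Aqp2 the vasopressin-regulated water channel of the collecting duct, Dgkg a diacylglycerol kinase and Cyp4b1 a cytochrome P450 that hydroxylates fatty acids.
Rpl39, chrX:37085223-37085472, minus strand: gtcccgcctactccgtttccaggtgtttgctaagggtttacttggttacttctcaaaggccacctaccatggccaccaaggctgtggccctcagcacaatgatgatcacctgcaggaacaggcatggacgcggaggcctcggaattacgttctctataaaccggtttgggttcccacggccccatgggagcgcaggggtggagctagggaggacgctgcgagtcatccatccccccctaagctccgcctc
Ndufc1, chr3:51408956-51409205, minus strand: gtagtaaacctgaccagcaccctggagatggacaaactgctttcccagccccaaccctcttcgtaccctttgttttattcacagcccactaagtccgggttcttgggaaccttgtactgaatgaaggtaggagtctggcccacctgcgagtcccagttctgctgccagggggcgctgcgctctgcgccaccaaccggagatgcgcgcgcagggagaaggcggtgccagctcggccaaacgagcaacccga
Hspe1, chr1:55087898-55088147, plus strand: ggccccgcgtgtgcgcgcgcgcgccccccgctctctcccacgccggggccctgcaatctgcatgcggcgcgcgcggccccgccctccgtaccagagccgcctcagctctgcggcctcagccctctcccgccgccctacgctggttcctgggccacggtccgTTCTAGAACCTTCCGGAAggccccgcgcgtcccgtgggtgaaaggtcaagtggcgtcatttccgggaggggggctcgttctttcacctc
Aqp2, chr15:99578806-99579055, plus strand: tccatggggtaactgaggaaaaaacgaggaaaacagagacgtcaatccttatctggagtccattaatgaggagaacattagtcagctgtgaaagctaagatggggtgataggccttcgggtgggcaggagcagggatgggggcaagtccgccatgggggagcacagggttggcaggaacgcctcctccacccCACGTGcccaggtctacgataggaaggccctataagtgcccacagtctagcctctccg
Dgkg, chr16:22657232-22657481, minus strand: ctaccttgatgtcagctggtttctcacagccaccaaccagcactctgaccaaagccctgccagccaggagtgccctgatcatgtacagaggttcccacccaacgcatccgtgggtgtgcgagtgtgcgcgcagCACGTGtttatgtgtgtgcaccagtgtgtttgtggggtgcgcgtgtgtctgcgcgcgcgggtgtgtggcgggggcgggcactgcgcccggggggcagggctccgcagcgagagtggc
Cyp4b1, chr4:115647722-115647971, minus strand: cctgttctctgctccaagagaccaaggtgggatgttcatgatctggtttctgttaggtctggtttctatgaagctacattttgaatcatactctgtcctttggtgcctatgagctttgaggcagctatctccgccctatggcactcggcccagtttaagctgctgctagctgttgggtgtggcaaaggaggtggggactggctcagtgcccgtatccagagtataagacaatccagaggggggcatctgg

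The capitals mark an E-box (CACGTG), the site of clock and MYC family factors, in Aqp2 and Dgkg, and 2 overlapping heat shock elements, each a run of 3 triplets GAA or TTC in alternating order with 2 free bases between them, in Hspe1. Both strands were searched for these and for 6 other elements in all windows of this length. The RefSeq table held 11941 of the tested genes with 15301 start windows, 46 of the 62 genes called lower and 18 of the 24 called higher. An E-box was present in 7.81% of all windows, in 2 of 53 windows of genes called lower (3.77%) and in 2 of 20 windows of genes called higher (10%). A heat shock element was present in 0.444% of all windows and in 1 window of the genes called lower, that of Hspe1. An antioxidant response element (TGACNNNGC) was present in 11.6% of all windows and in 7 of the 53 windows of genes called lower (13.2%). The windows of Rpl39, Ndufc1 and Cyp4b1 held none of the searched letters.

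Between 10 and 12 weeks, 24 genes rose (0.138% of those tested) and 62 fell (0.355%) in the kidney. The genes that fell were led by ribosomal protein genes, subunits of oxidative phosphorylation and other short genes. The genes that rose included some transporters and lipid enzymes, whose share among them and among all genes was not counted. They also included Parp10, Shpk, Jmjd8 and Cog2, which rose by 0.43, 0.36, 0.35 and 0.34 on the log2 scale. On GRCm39, Rpl39, which fell, lies on chromosome X from 36345092 to 36349130 on the minus strand. Dgkg, which rose, lies on chromosome 16 from 22283359 to 22476155 on the minus strand, and Cyp4b1 on chromosome 4 from 115476281 to 115504999 on the minus strand. Most changes were small. The median size of the log2 fold change was 0.38 among the genes that rose and 0.44 among those that fell, and 1 gene that rose and 9 that fell had a log2 fold change beyond 1 (0.00573% and 0.0516% of those tested). The median log2 fold change over all genes tested was -0.00. The 4 libraries of each age did not overlap for 23 of the 24 genes that rose and for all 62 that fell. Such non-overlap was seen in 4.58% and 4.44% of all genes tested, in the respective direction, and in 9.02% in either. Since the genes were called on these same libraries, their non-overlap follows largely from the calls and adds no support to them. At an unadjusted p under 0.05, 1525 genes (8.74%) were higher and 1364 (7.82%) lower. These shares over all genes are the ones to set beside the counts of the gene lists below. DESeq2 called 354 genes higher (2.03%) and 307 lower (1.76%), and limma-voom called 23 (0.132%) and 60 (0.344%).

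The number of calls depended on single libraries. Without the 10-week replicate 4, 190 genes were called higher and 216 lower, and without the 12-week replicate 1 the counts were 67 and 88. Without the 10-week replicates 1, 2 and 3, the counts were 5 and 29, 6 and 35, and 3 and 23. Without the 12-week replicates 2, 3 and 4, they were 2 and 26, 16 and 30, and 4 and 36. Of the 86 genes called with all libraries, 86 were called again without the 10-week replicate 4 and 73 without the 12-week replicate 1, and between 24 and 38 without each of the other libraries. Called in all 8 of these fits were 22 of the genes that fell and 1 that rose, Dgkg. In a fit of the 8 libraries alone, without the 8-week kidneys that help to estimate the spread between animals, 7 genes were called higher and 17 lower. Of the 86 genes, this fit called 18 again, 2 that rose and 16 that fell. Where a gene below is followed by a number of 8 fits, it is the number of the leave-one-out fits that called it. All of those fits kept the 8-week kidneys.

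**Figure D1:**
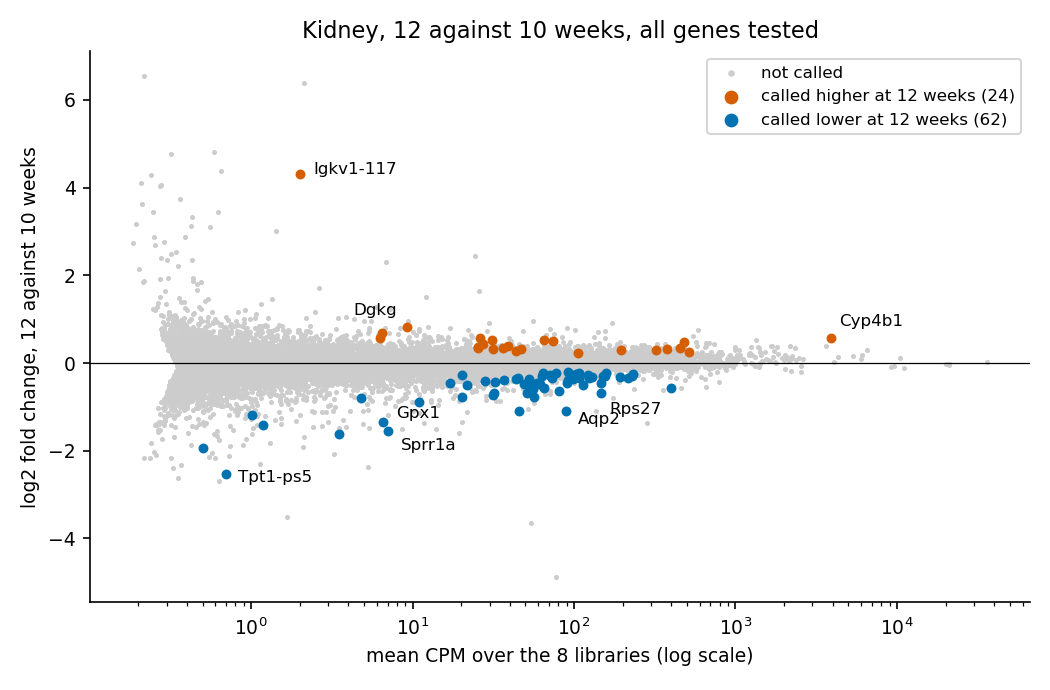
Log2 fold change of each of the 17452 genes tested, 12 against 10 weeks in kidney, against its mean CPM over the 8 libraries on a log axis. Orange points mark the 24 genes called higher and blue points the 62 called lower, most of which lie between 10 and 1000 CPM at small fold changes.

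Ribosomal protein genes formed one group among the genes that fell. Of 50 cytosolic ribosomal protein genes in a list, none was called higher (0 at an unadjusted p under 0.05, 0 by DESeq2 and 0 by limma-voom). Of the 50, 10 fell, against 0.355% of all genes tested. At an unadjusted p under 0.05, 28 were lower, against 7.82% of all genes tested. The median log2 fold change of the list was -0.16, against -0.00 over all genes. In the leave-one-out fits, between 5 (without the 10-week replicate 3) and 17 (without the 10-week replicate 4) of the 50 were called lower, with 6 without the 10-week replicate 2 and 7 to 11 without each other library, and in the fit of the 8 libraries alone 3 were. Over all 82 tested protein-coding genes with an Rpl or Rps name, a grouping chosen after the values were seen, 20 fell and none rose, and the median was -0.19. The ages did not overlap for 43 of these 82 genes, all lower at 12 weeks, against 4.44% of all genes tested in that direction. Because of how the grouping was chosen, its counts are a description and add no support. The list of 50, like the other lists here, was chosen with earlier results of these data known. Its counts are therefore a description too. Because the kidney was sequenced in bulk, fewer cells of one type and less RNA per cell cannot be told apart here.

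Among genes of the small ribosomal subunit, Rps27 measured 184, 203, 186 and 149.7 CPM at 10 weeks and 109.7, 115, 112 and 113.4 CPM at 12 weeks. Every 10-week library lay above every 12-week library, and Rps27 fell by 0.68 ± 0.07 on the log2 scale (SE, edgeR adjusted p = 0.00132, called in 8 of 8 fits). Rps29 measured 79.3, 70.4, 74.7 and 62 CPM at 10 weeks and 35.6, 44.4, 39.98 and 48.1 CPM at 12 weeks, with a log2 fold change of -0.77 ± 0.09 (edgeR adjusted p = 0.00229, 8 of 8 fits). Rps20 measured 119, 114, 111 and 102 CPM at 10 weeks and 86.8, 87.7, 79.6 and 91 CPM at 12 weeks, and Rps27a encodes a ubiquitin fusion protein. They fell by 0.37 and 0.32 (edgeR adjusted p = 0.0112 for both, 8 of 8 fits). Within Rps20, Rps27 and Rps29, the lowest 10-week value was that of replicate 4. It stood above the highest 12-week value, which follows largely from the calls.

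Among genes of the large subunit, Rpl39 measured 105, 98.4, 100.4 and 86.4 CPM at 10 weeks and 62.2, 64.2, 59.4 and 66.8 CPM at 12 weeks, and it fell by 0.63 ± 0.06 (SE, edgeR adjusted p = 0.000727, 8 of 8 fits). Rpl31 measured 42.1, 38.8, 42 and 34.3 CPM at 10 weeks and 21.3, 25.3, 22.6 and 25.5 CPM at 12 weeks, and it fell by 0.73 ± 0.08 (edgeR adjusted p = 0.00132, 8 of 8 fits). Rplp0, which encodes the stalk protein of the large subunit, measured 72.9, 69.3, 68 and 58.8 CPM at 10 weeks and 43.3, 46.1, 39.3 and 50.5 CPM at 12 weeks. Its fall of 0.59 ± 0.08 was called in 8 of 8 fits (edgeR adjusted p = 0.00496). Rpl30, Rpl36 and Rpl41 fell by 0.69, 0.45 and 0.46 (edgeR adjusted p = 0.0122, 0.00382 and 0.0122, each 8 of 8 fits). Rps25, a small-subunit gene, averaged 239.5 ± 7.23 CPM at 10 weeks and 208 ± 8.53 CPM at 12 weeks and was not called (log2 fold change -0.20, edgeR adjusted p = 0.0586).

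At 8 weeks these genes lay near their 12-week level. Rps27 measured 109, 118, 122 and 113.4 CPM at 8 weeks, and Rpl39 measured between 58.7 and 64.4 CPM. The log2 fold changes of Rps27 were 0.65 from 8 to 10 weeks and -0.04 from 8 to 12 weeks, and those of Rpl39 were 0.67 and 0.04. These contrasts share the 10-week or the 12-week libraries with the comparison above and add only the 8-week libraries to it. The 10-week kidneys were thus the high group for Rps27 and Rpl39. Summed over the 62 genes that fell, 13 of them in the oxidative phosphorylation list below, the level was 4346 to 4410 CPM at 8 weeks. At 10 weeks this sum was 5219 to 5832 CPM, and at 12 weeks 4097 to 4354 CPM. The 62 genes were chosen on the 10-week and 12-week libraries, and the sum is weighted to the abundant ones.

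**Figure D2:**
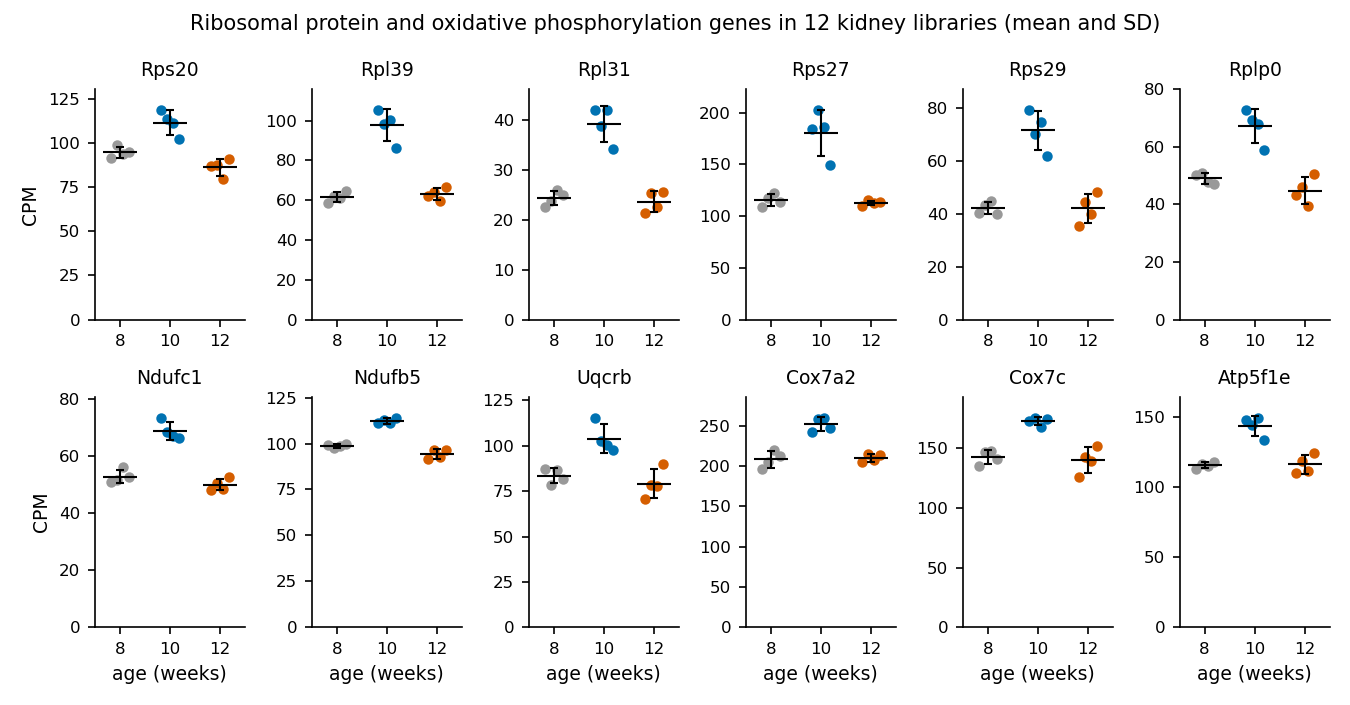
CPM of 6 ribosomal protein genes (top) and 6 oxidative phosphorylation genes (bottom) in the 12 kidney libraries, with 1 point per library, a horizontal line at the mean and bars of 1 SD (n = 4 per age). Rpl39 lies between 86.4 and 105 CPM at 10 weeks, and between 58.7 and 66.8 CPM at 8 and 12 weeks.

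Oxidative phosphorylation genes encoded in the nucleus formed another. Of 76 tested genes in this list, 13 fell and none rose, against 0.355% and 0.138% of all genes tested. At an unadjusted p under 0.05, 32 were lower and 4 higher, against 7.82% and 8.74% of all genes tested. DESeq2 called 26 lower and 0 higher, and limma-voom called 13 lower and 0 higher. The median log2 fold change was -0.10. When a library was left out, 2 of the 76 were called lower without each of the 10-week replicates 1 and 3 and the 12-week replicates 2 and 3, 5 without the 10-week replicate 2, 7 without the 12-week replicate 4, 10 without the 12-week replicate 1 and 14 without the 10-week replicate 4. In the fit of the 8 libraries alone, 1 was. By complex, 7 of 37 genes of complex I fell (median -0.14), 4 of 24 genes of complexes II to IV (median -0.00) and 2 of 15 genes of complex V (median -0.11). Of the 11 genes encoded in the mitochondrial genome that were tested, none was called, none had an unadjusted p under 0.05, none was called by DESeq2 or limma-voom, and the median was -0.06. Their summed level was between 92678 and 103274 CPM at 10 weeks and between 88953 and 106403 CPM at 12 weeks.

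In complex I, Ndufc1 measured 73.3, 68.5, 66.9 and 66.1 CPM at 10 weeks and 48.2, 50.4, 48.6 and 52.5 CPM at 12 weeks, and it fell by 0.46 ± 0.05 (SE, edgeR adjusted p = 0.00132, 8 of 8 fits). Ndufb5 measured 111, 112.8, 111 and 114 CPM at 10 weeks and 91.4, 96.7, 92.7 and 96.4 CPM at 12 weeks. Its fall of 0.25 ± 0.04 was small, but the spread within each age was smaller still (edgeR adjusted p = 0.0122, 8 of 8 fits). Ndufab1, Ndufa2, Ndufa6, Ndufa11 and Ndufs7 also fell, by between 0.20 and 0.45. The core subunit gene Ndufv1, whose protein carries the flavin, had a log2 fold change of 0.16 and was not called (edgeR adjusted p = 0.189).

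In complex III, Uqcrb measured 115, 102, 100.1 and 97.7 CPM at 10 weeks and 70.4, 78.6, 77.9 and 89.7 CPM at 12 weeks (log2 fold change -0.39 ± 0.07, edgeR adjusted p = 0.0378, 3 of 8 fits). Uqcc2, an assembly factor of complex III that is not in the list, fell by 0.80 ± 0.12 from 6.1 ± 0.538 to 3.48 ± 0.415 CPM (edgeR adjusted p = 0.00913, 8 of 8 fits). In complex IV, Cox7a2 fell by 0.26 and Cox7c by 0.30 (edgeR adjusted p = 0.0331 and 0.0378, 2 and 3 of 8 fits). In the ATP synthase, Atp5f1e, its epsilon subunit, measured 148, 144, 149 and 133 CPM at 10 weeks and 110.1, 118, 111 and 124 CPM at 12 weeks, and fell by 0.31 ± 0.05 (edgeR adjusted p = 0.0193, 4 of 8 fits). Atp5po, which encodes the stalk subunit that confers oligomycin sensitivity, fell by 0.88 ± 0.15 from 14.3 ± 1.65 to 7.74 ± 1.66 CPM (edgeR adjusted p = 0.0219, 4 of 8 fits). The 10-week and 12-week libraries lay apart in each of the genes named here as falling, which follows largely from the calls. Calls of 2 to 4 fits rested on which libraries were kept.

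The genes that fell shared features that were not used to choose them. Their median coding length was 375 bases, against 1401 bases over all tested genes with a coding length and 1824 bases for the genes that rose. Of the 62, 34 (54.8%) had a near-identical copy of their transcript elsewhere in the genome (at least 95% identity over at least 50% of the transcript), against 1674 (9.59%) of all genes tested and 1 (4.17%) of the 24 that rose. Reads of a gene with such a copy may map to several places and then go uncounted, so the levels of these genes are uncertain. Of the 27 oxidative phosphorylation genes with a copy, 5 fell (median -0.16), and of the 49 without one, 8 fell (median -0.00). Ndufb5, Cox7a2, Atp5f1e and the bile acid transporter gene Slc10a2 had no copy. Genes in which at least 50% of the coding bases lie in exons of another gene were 6 of the 62 (9.68%), against 5.03% of all. For Rplp0 this share was 60.6%, for Jund 85.7% and for Gpx1 100%. Reads there can be set aside as ambiguous, and the counting does not use strand.

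The change also followed coding length over all genes. In genes of up to 300 coding bases (n = 269), the median log2 fold change was -0.11, and 32.0% of them were lower and 5.58% higher at an unadjusted p under 0.05. In genes of over 3000 coding bases (n = 1956), the median was 0.00, and 5.78% were lower and 8.79% higher. Leaving out the oxidative phosphorylation list and all protein-coding genes with an Rpl or Rps name, the median of the shortest genes was -0.10 (n = 242). In heart the median was -0.09 in the shortest genes and 0.07 in those of over 3000 bases, from other libraries. In liver these medians were -0.01 and -0.04. In kidney, the median of the shortest genes was 0.13 from 8 to 10 weeks and 0.02 from 8 to 12 weeks. The 10-week kidneys were thus the high group for the shortest genes, though these contrasts share libraries with the comparison above. The part that coding length, copies and overlap play in the falls of the ribosomal protein and oxidative phosphorylation genes was not tested.

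**Figure D3:**
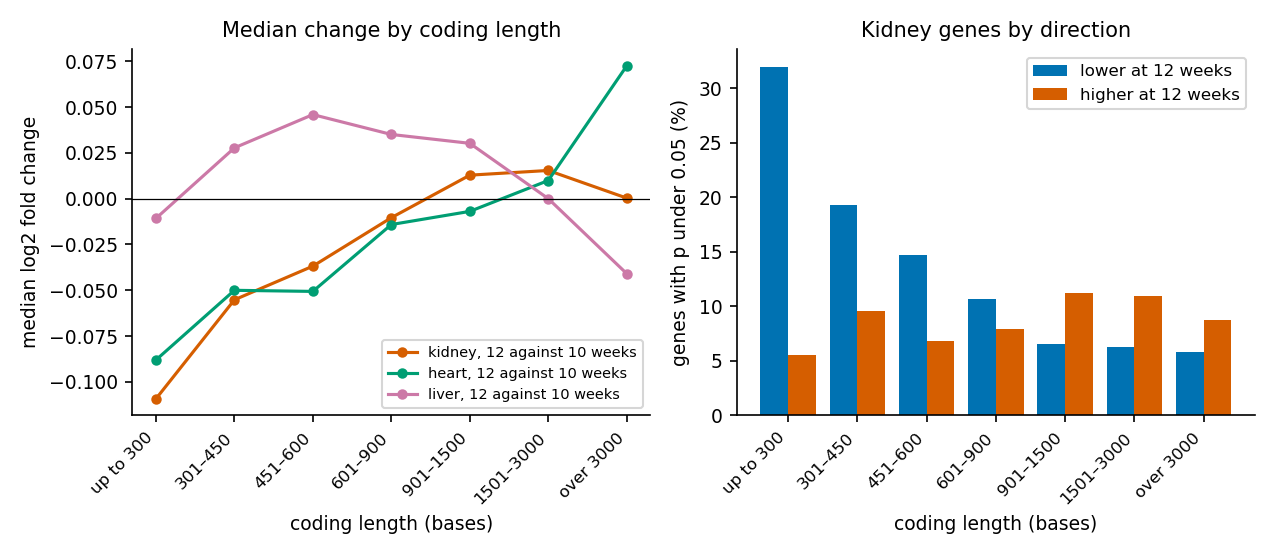
Left, median log2 fold change from 10 to 12 weeks in kidney, heart and liver for genes grouped by coding length in bases. Right, percentage of kidney genes in each group that were lower (blue) or higher (orange) at an unadjusted p under 0.05, which is 32.0% lower in genes of up to 300 bases and 5.78% lower in genes of over 3000 bases.

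Aqp2, the water channel of the collecting duct, measured 112, 129, 153 and 91.4 CPM at 10 weeks and 70.6, 47.5, 47 and 61.1 CPM at 12 weeks. It fell by 1.099 ± 0.19 on the log2 scale (SE, edgeR adjusted p = 0.0241), but only 2 of the 8 fits called it, with adjusted p between 0.0109 and 0.092. At 8 weeks Aqp2 measured 84.1, 83.1, 54.7 and 51.9 CPM, between the other ages and overlapping the 12-week values. Of 19 collecting duct genes tested, Aqp2 was the only one called, and the median was -0.02. Aqp3, the basolateral water channel of the same principal cells, averaged 101 ± 11.8 CPM at 10 weeks and 96.6 ± 6.08 CPM at 12 weeks, and Scnn1b, a subunit of their sodium channel, averaged 45.9 ± 2.47 and 48.8 ± 3.11 CPM.

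Sprr1a, a cornified envelope gene of stratified epithelia, fell by 1.55 ± 0.30 from 10.5 ± 1.71 to 3.54 ± 1.59 CPM (SE, edgeR adjusted p = 0.0384, 2 of 8 fits). Of 7 tested urothelium genes, none was called, and 6 were lower at an unadjusted p under 0.05, against 7.82% of all genes tested. DESeq2 called 5 of the 7 lower and limma-voom none, and the median was -0.96. Among them, Upk3a, a uroplakin gene, measured 3.74, 4.19, 4.57 and 3.71 CPM at 10 weeks and 2.36, 2.05, 1.48 and 2.42 CPM at 12 weeks (log2 fold change -0.96, edgeR adjusted p = 0.0619). Krt5, the keratin of the basal urothelium, lay between 2.48 and 5.21 CPM at 10 weeks and between 0.699 and 1.18 CPM at 12 weeks (-1.91, edgeR adjusted p = 0.053). The summed level of the 7 genes was 99.6 to 136 CPM at 10 weeks and 79.8 to 100.5 CPM at 12 weeks. Their part in the fall of Sprr1a was not tested.

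Slc10a2, the sodium-dependent bile acid transporter, measured 63.5, 65.8, 60.2 and 65.3 CPM at 10 weeks and 44.2, 49.3, 43.2 and 45.2 CPM at 12 weeks. It fell by 0.49 ± 0.06 (SE, edgeR adjusted p = 0.00229, 8 of 8 fits), and at 8 weeks it measured 43.9, 46.9, 41.9 and 40.8 CPM. Spink1, a secreted trypsin inhibitor gene, fell by 0.56 ± 0.08 from 474 ± 59 to 322 ± 18.6 CPM (edgeR adjusted p = 0.00913, 8 of 8 fits). Wfdc15b, a gene of the whey acidic protein family, fell by 0.78 ± 0.13 (edgeR adjusted p = 0.0219, 4 of 8 fits). Tspan1, a tetraspanin gene, lay between 38.3 and 44.6 CPM at 10 weeks and between 30.5 and 32.6 CPM at 12 weeks, and fell by 0.39 ± 0.06 (edgeR adjusted p = 0.0093, 8 of 8 fits).

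Of 27 immediate early genes tested, which respond within minutes to growth factors and stress, 2 fell, against 0.355% of all genes tested. At an unadjusted p under 0.05, 14 were lower, against 7.82% of all genes tested, and the median of the list was -0.40. DESeq2 called 6 lower and limma-voom 2. Leaving out a library gave 1 to 5 lower, with 5 without the 10-week replicate 4, and 1 without any other 10-week library or without the 12-week replicate 2 or 4. Jund, a component of AP-1, measured 27.1, 25.2, 27.4 and 22.4 CPM at 10 weeks and 16.7, 18.5, 18.2 and 18.9 CPM at 12 weeks, and fell by 0.50 ± 0.07 (SE, edgeR adjusted p = 0.0103, 8 of 8 fits). Zfp36, which encodes a protein that marks mRNA for decay, measured 70.4, 65.7, 61 and 59.1 CPM at 10 weeks and 46.1, 39.7, 50.4 and 34.5 CPM at 12 weeks (log2 fold change -0.59 ± 0.12, edgeR adjusted p = 0.0453, 3 of 8 fits). First-strand counts called 1 gene of the list lower. Second-strand counts called 0, and so neither Jund nor Zfp36. Fos and Egr1 spread widely at 10 weeks and were not called. Fos measured 10.6, 5.85, 2.25 and 2.41 CPM at 10 weeks and 1.24, 2.32, 0.822 and 0.535 CPM at 12 weeks (-2.07, edgeR adjusted p = 0.074), and Egr1 reached 58.7 CPM in the 10-week replicate 1 against 15.6 to 22.9 CPM in the other 10-week libraries (-1.61, edgeR adjusted p = 0.0959). In heart the median of the same list was -0.33 and in liver -0.19.

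Of 17 heat shock genes, 2 fell, against 0.355% of all genes tested. At an unadjusted p under 0.05, 12 were lower, against 7.82% of all genes tested. DESeq2 called 8 of the 17 lower and limma-voom 2, with a median of -0.29. Leaving out a library gave 0 to 5 lower. None was called without the 10-week replicate 3 or the 12-week replicate 3, 1 without the 10-week replicate 1 or the 12-week replicate 2 or 4, 3 without the 10-week replicate 2, and 5 without the 10-week replicate 4 or the 12-week replicate 1. Hspe1 measured 179.7, 156, 169 and 158 CPM at 10 weeks and 132, 138, 132 and 137 CPM at 12 weeks, and fell by 0.30 ± 0.05 (SE, edgeR adjusted p = 0.0185, 6 of 8 fits). Hspd1, its partner chaperonin, which is transcribed away from Hspe1 on the other strand, averaged 825 ± 45.9 CPM at 10 weeks and 826 ± 26.8 CPM at 12 weeks. Hspa4l, a co-chaperone gene of the HSP110 family, fell by 0.56 ± 0.10 from 77.9 ± 11.8 to 52.9 ± 3.64 CPM (edgeR adjusted p = 0.0219, 3 of 8 fits). Of 21 genes of the unfolded protein response, none was called. At an unadjusted p under 0.05, 10 were lower and 0 higher, against 7.82% and 8.74% of all genes tested. DESeq2 called 3 of the 21 lower and limma-voom none, 4 were called lower without the 12-week replicate 1, and the median was -0.24. Hspa5, the main chaperone of the endoplasmic reticulum, measured 861, 679, 749 and 812 CPM at 10 weeks and 704, 565, 382 and 487 CPM at 12 weeks (-0.54, edgeR adjusted p = 0.0993). Values of Hspa5 overlapped between the ages.

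Other falls concerned genes with few counts or overlapping neighbours. Cdkn2b, a cyclin-dependent kinase inhibitor gene, fell by 1.62 ± 0.33 from 5.28 ± 2.68 to 1.73 ± 0.361 CPM (SE, edgeR adjusted p = 0.0453, 1 of 8 fits, the one without the 10-week replicate 4). Cxcl1, a neutrophil chemokine gene, measured 0.914, 2, 2.25 and 1.74 CPM at 10 weeks and 0.877, 0.58, 0.493 and 0.642 CPM at 12 weeks (-1.41 ± 0.27, edgeR adjusted p = 0.0384, 3 of 8 fits). It was the only one of 11 chemokine genes tested that was called. Gpx1, which encodes the main cytosolic glutathione peroxidase and whose coding bases lie wholly in exons of another gene, fell by 1.35 ± 0.25 from 9.48 ± 2.89 to 3.71 ± 1.24 CPM (edgeR adjusted p = 0.0327, 3 of 8 fits).

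Dgkg was, of the genes that rose, the one called in every leave-one-out fit. It measured 6.44, 6.38, 7.21 and 6.79 CPM at 10 weeks and 12.1, 13.3, 11.8 and 10.2 CPM at 12 weeks, and rose by 0.82 ± 0.11 on the log2 scale (SE, edgeR adjusted p = 0.00496, 8 of 8 fits). At 8 weeks it measured 7.63, 6.08, 6.7 and 5.54 CPM, so the 12-week kidneys were the high group. Sectm1b, a gene of a secreted and transmembrane protein, measured 59.9, 60.3, 58.1 and 65.8 CPM at 10 weeks and 80.7, 85.9, 79.3 and 101 CPM at 12 weeks, and rose by 0.51 ± 0.08 (edgeR adjusted p = 0.0154, 6 of 8 fits). At 8 weeks Sectm1b lay between 81.1 and 98.9 CPM, so here the 10-week kidneys were the low group.

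Cyp4b1 was the most abundant gene that rose. It measured 2872, 2901, 3298 and 3482 CPM at 10 weeks and 4580.0, 5521, 3995 and 4430.0 CPM at 12 weeks, and rose by 0.56 ± 0.11 (SE, edgeR adjusted p = 0.0384, 3 of 8 fits). Its 8-week values lay between 2849.6 and 3548 CPM. Cyp4b1 was the only one of 15 androgen-regulated kidney genes called. Of the 12 of these that are higher in males, 7 were higher and 1 lower at an unadjusted p under 0.05, against 8.74% and 7.82% of all genes tested. DESeq2 called 4 of the 12 higher, and their median was 0.37. Slco1a1, an organic anion transporter, measured 342, 302, 540.3 and 563 CPM at 10 weeks and 710.5, 1036, 525 and 686 CPM at 12 weeks (0.76, edgeR adjusted p = 0.124), with overlap between the ages. Kap differed little, with 21283 ± 1163 CPM at 10 weeks and 20968 ± 2450.2 CPM at 12 weeks.

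Slc7a4, of the cationic amino acid transporter family, rose by 0.58 ± 0.11 from 5.04 ± 0.368 to 7.55 ± 0.947 CPM (SE, edgeR adjusted p = 0.0324, 3 of 8 fits). Tmem174, a membrane protein gene of the proximal tubule, measured 342, 373, 416 and 473 CPM at 10 weeks and 501, 609.9, 578 and 544 CPM at 12 weeks, and rose by 0.48 ± 0.09 (edgeR adjusted p = 0.0384, 2 of 8 fits). Slc22a18, an organic cation transporter-like gene, and Abca3, a lipid transporter gene, rose by 0.34 ± 0.07 and 0.25 ± 0.05 (edgeR adjusted p = 0.0398 and 0.0388, 2 and 1 of 8 fits). Lama1, the laminin alpha chain of basement membranes, rose by 0.57 ± 0.11 from 21.2 ± 2.39 to 31.4 ± 3.49 CPM (edgeR adjusted p = 0.0384, 2 of 8 fits), and Degs2, a sphingolipid hydroxylase gene, rose by 0.53 ± 0.10 from 53.5 ± 6.77 to 77.4 ± 11.9 CPM (edgeR adjusted p = 0.0398, 2 of 8 fits). Of 33 proximal tubule genes, none was called. At an unadjusted p under 0.05, 12 were higher and 0 lower, against 8.74% and 7.82% of all genes tested. DESeq2 called 3 of the 33 higher and limma-voom none, and the median was 0.14. Slc6a19, the neutral amino acid transporter of the brush border, measured 506, 707, 508 and 603 CPM at 10 weeks and 712, 738, 978 and 770.4 CPM at 12 weeks (0.46, edgeR adjusted p = 0.0893).

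**Figure D4:**
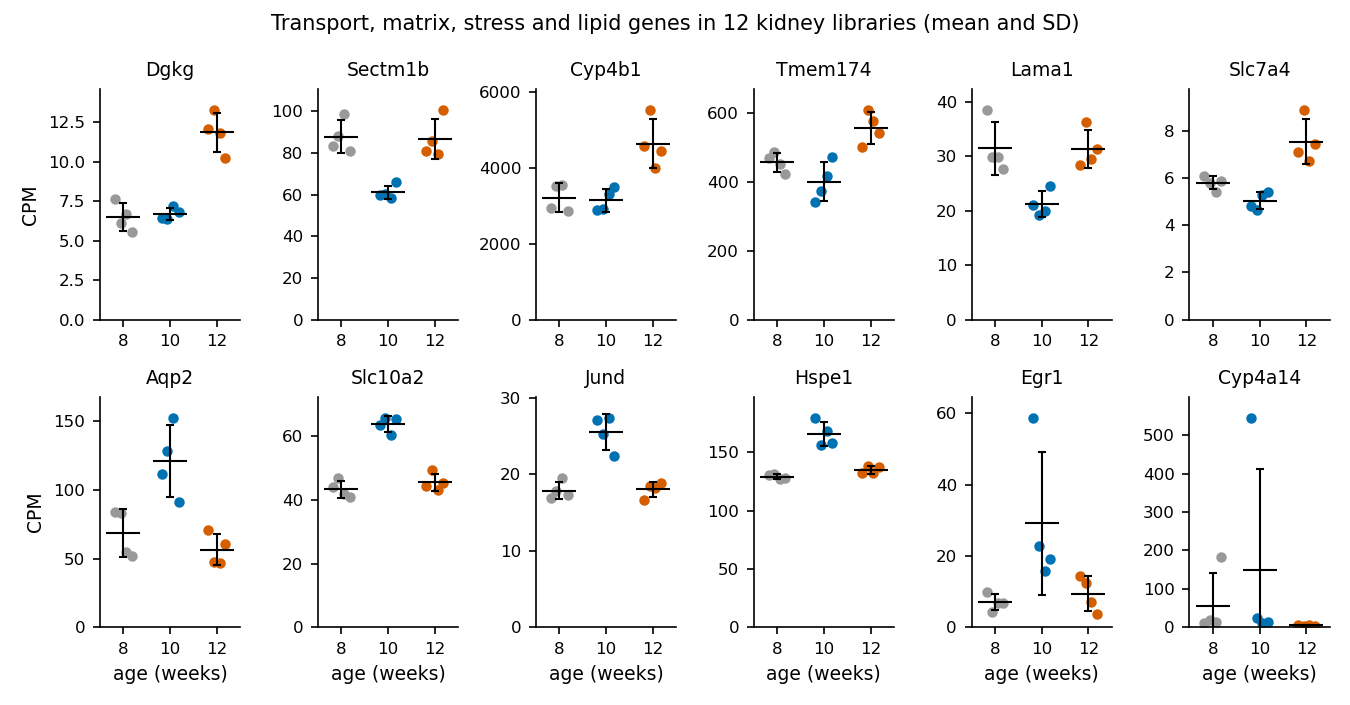
CPM of 12 further genes in the 12 kidney libraries, with 1 point per library, a line at the mean and bars of 1 SD (n = 4 per age), drawn on axes from 0. Dgkg, Cyp4b1 and Slc7a4 are highest at 12 weeks, Aqp2, Slc10a2, Jund and Hspe1 are highest at 10 weeks, and the 10-week means of Egr1 and Cyp4a14 rest on replicate 1 (58.7 and 545 CPM).

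Igkv1-117, a light chain variable segment of the immunoglobulins that plasma cells secrete, measured 0.653, 0, 0.0965 and 0.0743 CPM at 10 weeks and 4.84, 7.5, 2.42 and 0.57 CPM at 12 weeks. It was called higher (log2 fold change 4.31 ± 0.82, SE, edgeR adjusted p = 0.0384, 4 of 8 fits), although the 12-week replicate 4 lay below the 10-week replicate 1, and its counts were few. Igha, the constant region of IgA, measured 16.7, 4.79, 3.54 and 6.05 CPM at 10 weeks and 47.6, 71.6, 14.8 and 31 CPM at 12 weeks (2.44, edgeR adjusted p = 0.053). Jchain, which joins IgA dimers, measured 4.13, 1.55, 0.998 and 2.67 CPM at 10 weeks and 13.9, 19.8, 4.15 and 7.2 CPM at 12 weeks (2.30, edgeR adjusted p = 0.053). Of the 6 genes tested in a list of immunoglobulin constant genes and the J chain, none was called. At an unadjusted p under 0.05, 6 were higher, against 8.74% of all genes tested. DESeq2 called 2 of the 6 higher and limma-voom none. The median was 2.37. Their summed level was 8.30 to 25.0 CPM at 10 weeks and 30.2 to 102 CPM at 12 weeks. Of 4 other B and plasma cell genes, 12 T and natural killer cell genes and 15 macrophage and dendritic cell genes, none was called, and 0, 0 and 1 were higher at an unadjusted p under 0.05.

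Of 29 interferon-stimulated genes, none was called. At an unadjusted p under 0.05, 1 was higher and 1 lower, against 8.74% and 7.82% of all genes tested. None of the 29 was called by DESeq2 or limma-voom, and the median was -0.08. Of 17 genes of MHC class I presentation and 10 of class II presentation, none was called by edgeR, DESeq2 or limma-voom, 1 and 2 were higher at an unadjusted p under 0.05, and the medians were 0.14 and 0.20. Of 16 period genes and clock outputs, none was called, 4 were higher at an unadjusted p under 0.05, DESeq2 called 1 higher and limma-voom none, and the median was 0.19. Tef, a clock output factor, measured 317, 466, 450.4 and 476 CPM at 10 weeks and 518, 548, 552 and 537 CPM at 12 weeks (0.33, edgeR adjusted p = 0.116). Of 13 tubule injury genes and 25 collagen and matrix genes, none was called by edgeR or limma-voom. At an unadjusted p under 0.05, 4 and 2 were lower, against 7.82% of all genes tested, so the matrix genes lay near that share. DESeq2 called 1 lower in each list, and the medians were -0.20 and -0.14.

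**Figure D5:**
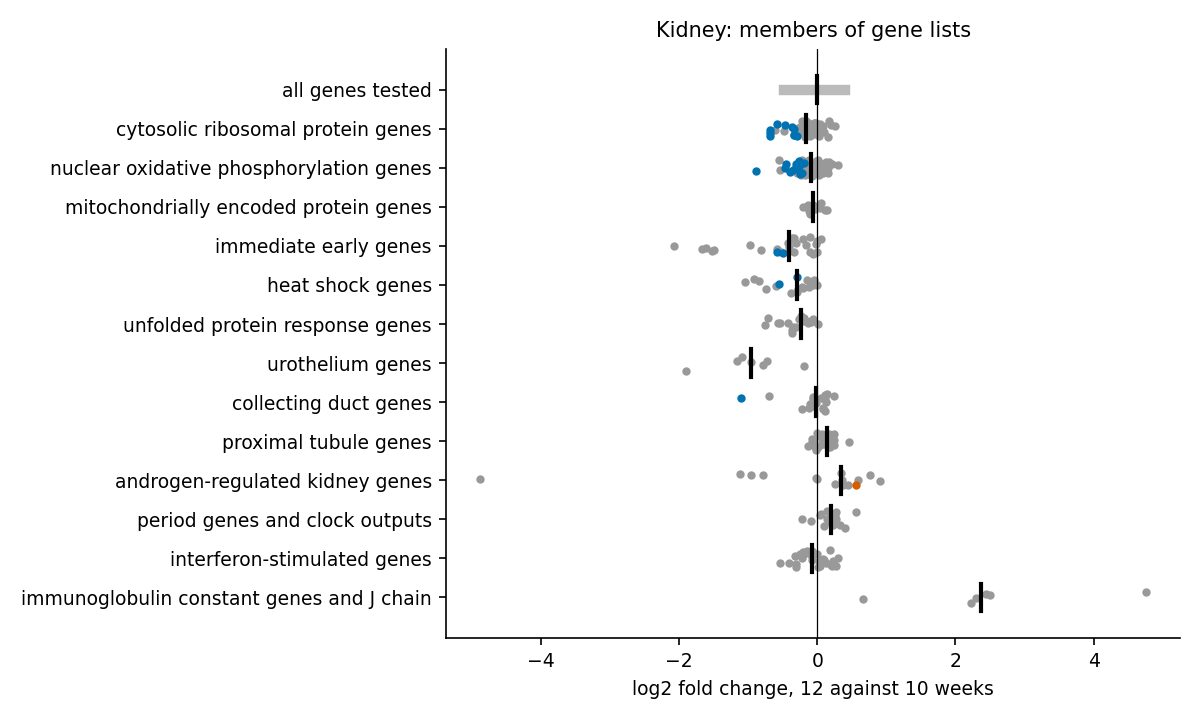
Log2 fold change of the members of gene lists, 12 against 10 weeks in kidney, with 1 point per gene and a black line at each list's median. The grey bar shows the middle 90% of all genes tested. Blue points were called lower and orange points higher, as with 10 of the 50 ribosomal protein genes and 13 of the 76 oxidative phosphorylation genes.

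Among 14 genes that the study names for kidney, none was called. At an unadjusted p under 0.05, 4 were higher and 0 lower, against 8.74% and 7.82% of all genes tested. DESeq2 called 1 of the 14 and limma-voom none. The study named these genes from its comparison of 12 with 8 weeks, which shares the 12-week libraries with the values here, so their direction is not independent evidence. Synpr, a synaptic vesicle protein gene, measured 0, 0, 0.0965 and 0.0743 CPM at 10 weeks and 3.39, 11, 0.123 and 2.21 CPM at 12 weeks, and these few counts spread widely. Neurog2, a neural transcription factor gene, measured 2.83, 2.15, 2.25 and 2.82 CPM at 10 weeks and 5.5, 7.81, 3.04 and 4.49 CPM at 12 weeks, which did not overlap (1.06, edgeR adjusted p = 0.0586). Such non-overlap in this direction was seen in 4.58% of all genes tested. Cyp4a12a, the androgen-dependent fatty acid hydroxylase, measured 169, 112.6, 99.1 and 94.6 CPM at 10 weeks and 235, 357, 86.1 and 215 CPM at 12 weeks (0.91, edgeR adjusted p = 0.203). Hmox1, haem oxygenase, measured 34.5, 34.8, 35.6 and 24.7 CPM at 10 weeks and 27.1, 30.8, 30.6 and 70.4 CPM at 12 weeks (0.29, edgeR adjusted p = 0.648), so its higher mean at 12 weeks rested on replicate 4. Without that library its log2 fold change was -0.14. Ddit4, a stress-induced inhibitor of mTORC1, averaged 29.4 ± 6.55 and 22.5 ± 8.13 CPM (-0.39, edgeR adjusted p = 0.407).

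Among targets of PPAR alpha, which drives fat oxidation, the 10-week replicate 1 stood apart. Cyp4a14 measured 545 CPM in it and 24, 12 and 14.7 CPM in the other 10-week libraries, against 3.38 to 6.68 CPM at 12 weeks. Cyp4a14 was not called (edgeR adjusted p = 0.107), and at 8 weeks replicate 4 stood apart in it with 184 CPM. Of 27 genes of fatty acid oxidation and PPAR alpha targets, none was called by edgeR or limma-voom, and DESeq2 called 1 higher. At an unadjusted p under 0.05, 2 were higher and 5 lower, against 8.74% and 7.82% of all genes tested. Cpt1a, which admits fatty acids to mitochondria, measured 522, 629, 506 and 609 CPM at 10 weeks and 651, 736, 785 and 758 CPM at 12 weeks (0.37, edgeR adjusted p = 0.0657).

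The change from 10 to 12 weeks was set against the same change in heart and in liver with interaction terms in a model of all 36 libraries. Against heart, 2 of 18633 genes changed more positively in kidney (0.0107%) and 1 more negatively (0.00537%). The negative difference was that of Rps27, which was -1.07 ± 0.16 (SE, edgeR adjusted p = 0.00249). In heart Rps27 measured 109, 121, 132 and 149 CPM at 10 weeks and 175, 151, 150 and 201 CPM at 12 weeks, the opposite direction to kidney, with a log2 fold change of 0.41. For Rps25 the difference was -0.60 and was not called (edgeR adjusted p = 0.245), and the medians of the ribosomal protein list were -0.09 in heart and 0.07 in liver. The positive differences were those of Cyp2e1 (2.08 ± 0.34, SE, edgeR adjusted p = 0.00788) and of the complement gene C4b (1.48 ± 0.27, edgeR adjusted p = 0.0265). These calls did not hold throughout. Over the alternatives their adjusted p reached 0.404 and 0.248, and neither was called by limma-voom or without the 12-week heart replicate 3, whereas Rps27 kept its call with an adjusted p of at most 0.0136. C4b was also not called without the heart replicate 1 or 2 of 10 weeks or 1 of 12 weeks, nor without the kidney replicate 1, 3 or 4 of 10 weeks or 1 or 2 of 12 weeks. Cyp2e1 measured 0.905 to 2.51 CPM in heart at 10 weeks and 0.278 to 0.696 CPM at 12 weeks, against 1895 ± 247 and 2462 ± 117 CPM in kidney.

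Against liver, 119 of 18450 genes changed more positively in kidney (0.645%) and 28 more negatively (0.152%). Cyp4b1 was among them, with a difference of 1.31 ± 0.22 (SE, edgeR adjusted p = 0.00793). In liver it measured between 22.03 and 24.01 CPM at 10 weeks and between 10.2 and 16 CPM at 12 weeks, which is lower, whereas kidney rose. Cd300lg and Gpihbp1, both genes of capillary endothelium, differed by 1.13 and 1.44 (edgeR adjusted p = 0.00216 for both). Gpihbp1, which anchors lipoprotein lipase, measured 5.48, 5.62, 4.83 and 6.05 CPM in kidney at 10 weeks and 9.04, 8.66, 8.88 and 8.66 CPM at 12 weeks, against 17.4 to 21.3 and 10.8 to 13.6 CPM in liver. Csf1r, the receptor that macrophages need, and Flt4, the lymphatic and sinusoidal VEGF receptor, differed by 1.26 and 1.13 (edgeR adjusted p = 0.00854 for both). In those 2 genes the difference came with liver log2 fold changes of -1.02 and -1.06 and kidney changes of 0.24 and 0.06. The medians of the genes called lower in kidney were -0.19 in heart and -0.08 in liver.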

How the data were processed

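Polyadenylated RNA of kidney, heart and liver was sequenced from mice of 8, 10 and 12 weeks, with 4 libraries per tissue and age. Per the submitters' processing notes and the study's methods, the authors examined reads with FastQC 0.11.9, trimmed them with cutadapt 4.2 and aligned them with STAR 2.7.11b to GRCm39 with Ensembl 113. The deposited values are whole-number counts of read pairs per gene, without normalization, and the unstranded column was taken. STAR counts only pairs with 1 place in the genome that overlap 1 gene, so genes with near-identical copies or overlapping neighbours lose pairs. Gene names, positions and coding lengths came from GENCODE M39 on the same build, and copies from minimap2 2.31.

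Groups followed the tissue and age on the labels. The main test was edgeR 4.0.16's quasi-likelihood F-test (R 4.3.3) with TMM scaling over the 12 kidney libraries, on genes with a mean count of at least 10 at 10 or 12 weeks, with Benjamini-Hochberg adjustment and a threshold of 0.05. The SE is the size of the log2 fold change over the root of F. Differences between tissues were interaction terms over all 36 libraries. DESeq2 1.42.0 and limma-voom (limma 3.58.1) were alternatives, beside other scalings, filters, strand columns, library sets and leaving out each library. Scripts were tested on simulated data. The common coefficient of variation between kidneys was 0.113, and counting error adds to it for genes with few counts.

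A rule chose part of the genes named in the text. It took up to 12 at each end by fold change among called, non-overlapping protein-coding genes with a mean of at least 50 counts. It added the 6 with the smallest p in each direction and up to 4 per list. It also added the genes the study names and 5 per tissue difference. Other genes in the text, such as Kap, were named outside this rule, so it did not fix the choice of examples. Gene lists are described by counts and medians, without set tests. The members and the lists were chosen with earlier results of these data known. A few genes are not reported here.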

Additional observations from a re-analysis of the deposited data

Results flagged for a closer look

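In 140 named genes, each age's 4 kidney libraries were checked for a highest or lowest library that stood apart by Dixon's 95% limit for 4 values. Of 280 groups, 23 had one (8.21%), where chance gives about 1 in 20.

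At 10 weeks, replicate 1 stood apart as the highest in Cyp4a14 (545 CPM), Cyp4a10 (940.1 CPM) and Egr1 (58.7 CPM), and as the lowest in Tef (317 CPM), Cirbp (11.6 CPM) and Atp6v1c2 (18.7 CPM). Replicate 2 was the highest in Noct (44.1 CPM), Cry1 (12.5 CPM), Spp1 (881 CPM), Krt5 (5.21 CPM) and Ighg2c (0.0755 CPM) and the lowest in Sdf2l1 (9.05 CPM). Replicate 3 was the highest in Cog2 (33.4 CPM). Replicate 4 was the highest in Slc6a20b (322 CPM) and Slc34a3 (62.5 CPM) and the lowest in Hmox1 (24.7 CPM).

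At 12 weeks, replicate 1 was the lowest in Cog2 (35.7 CPM) and Per3 (45.7 CPM) and the highest in Cdkn1a (7.47 CPM) and Cidea (5.29 CPM). Replicate 2 was the highest in Irf1 (16.8 CPM) and Ighg2c (2.22 CPM), and replicate 4 in Hmox1 (70.4 CPM).

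The change from 10 to 12 weeks differed between tissues by an interaction term in 8 named genes. Against heart, the log2 difference was -1.07 in Rps27, 2.08 in Cyp2e1 and 1.48 in C4b. Against liver, it was 1.13 in Cd300lg, 1.44 in Gpihbp1, 1.31 in Cyp4b1, 1.26 in Csf1r and 1.13 in Flt4.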

How the results depend on the processing

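All 86 calls kept their direction under every alternative that gave them a value, but their number did not. Genes called higher and lower numbered 24 and 62 with all libraries, and 1 and 9 with a log2 fold change beyond 1. With library totals only, 108 were lower and 5 higher beyond 1. Without a filter on low counts, 495 and 443 were called, with 68 and 99 beyond 1. With DESeq2, 354 and 307 were called, with 9 and 21 beyond 1, and limma-voom called 5 lower beyond 1. In the fit of the 8 libraries alone, 7 and 17 were called, with 0 and 2 beyond 1. First-strand counts gave 42 higher, 9 of them beyond 1, and second-strand counts 59 higher, 94 lower and 8 higher beyond 1. Of the 86 calls, first-strand counts kept 58 and second-strand counts 59. Leaving out a library gave 2 to 190 higher and 23 to 216 lower, with 0 to 14 and 0 to 43 beyond 1. The cause was not tested.

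Same-numbered libraries of 10 and 12 weeks did not deviate together (correlations 0.14, -0.15, 0.02 and 0.03), and a replicate block gave 40 higher, 2 beyond 1, and kept 55 of the 86 calls.

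Of the differences from heart, 82 and 41 were called without a filter, none higher by limma-voom, 3 lower with 24 libraries, and 0 to 4 and 1 to 6 without a library. From liver, it was 398 and 161, 76 higher by limma-voom, 19 and 4 with 24 libraries, and 71 to 167 and 13 to 56 without a library.

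Log2 fold changes of uncalled genes changed sign. Cry1 was -0.020 by library totals, -0.032 by limma-voom, -0.028 with the replicate block and -0.15 by second-strand counts. Leaving out a library gave log2 fold changes of -0.49 to 0.52 for Cry1 (with -0.13, -0.11 and -0.09 between), -0.14 to 0.44 for Hmox1, -0.37 to 0.20 for Noct, -0.30 to 0.23 for Plk3 (with 0.09 between), -0.11 to 0.30 for Acsbg1 (with -0.02 and -0.05), -3.16 to 0.46 for Cidea (with 0.17 and 0.12) and -0.022 to 0.099 for Flt4. At these depths, genes under about 1 CPM rest on few counts.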

Other observations

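Several groups not described above held no called gene. At an unadjusted p under 0.05, 8.74% of all genes tested were higher and 7.82% lower. Of 10 renin-angiotensin genes tested, 3 were higher and 1 lower at an unadjusted p under 0.05, DESeq2 called 1 higher and limma-voom none, and the median log2 fold change was 0.11. Anpep, an aminopeptidase of the brush border, measured 175, 155, 184 and 193 CPM at 10 weeks and 210.4, 228, 202 and 214 CPM at 12 weeks, which did not overlap (0.27, edgeR adjusted p = 0.0707). Such non-overlap in this direction was seen in 4.58% of all genes tested. Ren1, the gene of renin, measured between 38.4 and 48.2 CPM at 10 weeks and between 27.4 and 73.9 CPM at 12 weeks, and thus spread more widely at 12 weeks. Of 20 cholesterol synthesis genes, 2 were higher and 6 lower at an unadjusted p under 0.05, and DESeq2 called 2 in each direction and limma-voom none. Of 21 cell proliferation genes, 3 were lower and 0 higher at an unadjusted p under 0.05, DESeq2 called 1 lower and limma-voom none, and the median was -0.13. Of 9 podocyte genes, 10 endothelial genes and 10 thick limb genes, 0, 2 and 1 were lower at an unadjusted p under 0.05 and none higher, and DESeq2 called 1 thick limb gene lower and limma-voom none.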
